A study of Homo sapiens with 6 samples.

Results

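The 10 genes examined here encode receptors and ligands of 4 growth factor systems in breast cancer cells: AXL, TYRO3, MERTK and their ligand GAS6; MET and its ligand HGF; FGFR1 and FGF2; and PDGFRB and PDGFC. They were taken by gene symbol from a count table of 58735 genes, and each symbol named 1 row. Messenger RNA was measured by RNA sequencing in 3 libraries of parent MDA-MB-231 cells and 3 libraries of their Adriamycin-resistant derivative. MDA-MB-231 is an established human triple-negative breast cancer line of mesenchymal character, and Adriamycin (ADR, doxorubicin) is an anthracycline that poisons topoisomerase II. The labels give the parent cells as wild type and the others as ADR resistant, here called ADRr. Both groups were grown in DMEM with serum. According to the study's methods, resistance was raised by stepwise exposure to rising ADR concentrations, and individual clones were then isolated by limiting dilution. The labels do not say whether the 3 ADRr libraries came from 1 clone, whether drug was present at harvest, or whether libraries of a group were separate cultures. The p-values therefore measure the spread between these libraries, which may be technical.

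All 6 receptors are tyrosine kinases of the plasma membrane that pair or change shape on binding a ligand, phosphorylate each other's tails and recruit adaptors that feed the RAS-MAPK and PI3K-AKT pathways. AXL, TYRO3 and MERTK form the TAM family, whose ligand GAS6 needs vitamin K-dependent carboxylation and links the receptors to exposed phosphatidylserine. AXL and MET are known in breast cancer for roles in migration, invasion and drug tolerance, FGF2 needs heparan sulfate to bind its receptors, and PDGFRB is best known from pericytes and fibroblasts.

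The libraries held 15983985 to 18272314 counts in genes, so that the floor of 3 counts lay at 0.164 to 0.188 CPM, a count scaled to the library total. These floors cover counting error only. Levels between genes are given as FPKM, fragment counts scaled for gene length and library size, and changes as log2 fold changes of ADRr over parent from edgeR's quasi-likelihood test on counts. A gene was called where its Benjamini-Hochberg adjusted p over the 15242 genes tested was at most 0.05 and its fold change at least 1.2. The summed FPKM of 6 genes known to be expressed in MDA-MB-231 was 401 to 419 in parent and 488 to 506 in ADRr libraries. These genes, VIM, CD44, ZEB1, MSN, EGFR and KRT18, did not move together. Of the 6, 3 were called higher, EGFR (38.9 to 103 FPKM) and CD44 (83.7 to 146 FPKM) among them, and 2 lower. Over all tested genes, 29.2% were called higher and 29.6% lower. Of 6 genes of luminal or epithelial breast cells, ESR1, PGR, FOXA1 and TFF1 had at most 3 counts in any library, whereas GATA3 (8.73 FPKM in parent, 7.51 in ADRr, not called) and CDH1 (2.34 and 1.12 FPKM, log2 fold change -1.07) were expressed. Of 10 leukocyte markers, 8 lay under 1 CPM in every library, PTPRC, LYZ, TYROBP and CD3E among them at 3 counts or fewer. ITGAM had 0 counts in parent and 6 to 7 in ADRr libraries. The remaining 2 were expressed and called in opposite directions, LCP1 lower (1.47 to 0.485 FPKM, -1.61) and CORO1A higher (0.504 to 1.22 FPKM, 1.27). All 6 endothelial markers were under 1 CPM in every library.

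Of the 10 genes, 8 had enough counts to be tested. MERTK and MET rose in ADRr cells, AXL, TYRO3, GAS6, PDGFRB and PDGFC fell, and FGFR1 was not called. HGF and FGF2 were at or near 0 counts in both groups. The 2 increases stand against a background in which 29.2% of all tested genes were called higher, and the 5 decreases against 29.6% called lower, 58.8% in either direction. For 7 of the 8 genes all normalized counts of 1 group lay on 1 side of the other group's, and the same held for 69.2% of all tested genes. Over all tested genes, the size of the log2 fold change had a median of 0.46. Of all tested genes, 266 changed by at least as much as PDGFRB and 501 by at least as much as MERTK, while 5694 changed by at least as much as AXL.

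**Figure D1:**
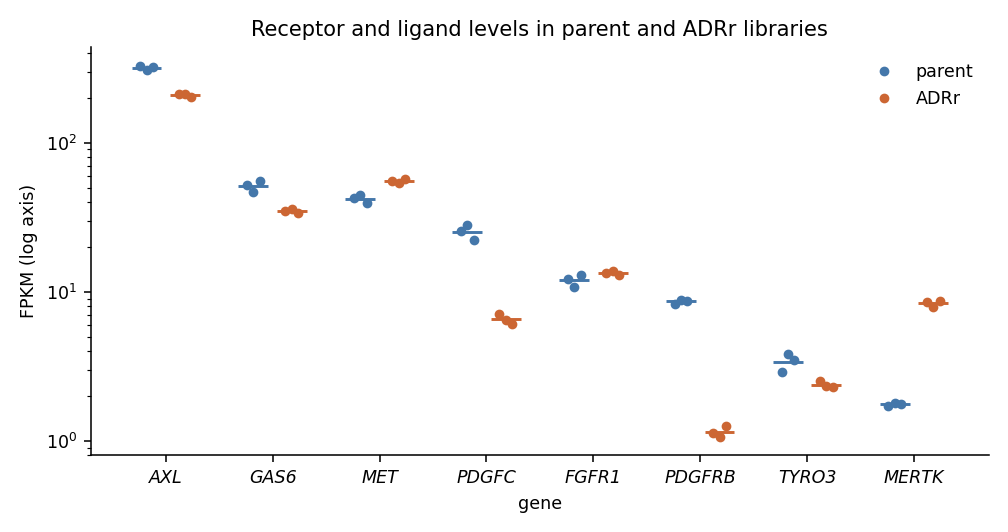
FPKM on a log axis of the 8 tested genes in each library, with points for the 3 parent (blue) and 3 ADRr (orange) libraries and a line at each group mean. AXL was highest in every library, MERTK moved from 1.76 to 8.38 and PDGFRB from 8.60 to 1.15; HGF and FGF2 are not drawn.

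Promoter sequences of 3 of the receptors are shown because they hold the most abundant gene (AXL), the largest increase (MERTK) and the largest decrease (PDGFRB). Each runs 5′ to 3′ on the gene's own strand from 250 bases before to 50 bases after a RefSeq transcript start of GRCh38.p14, at chr19:41218973-41219272 (plus strand) for AXL, chr2:111898357-111898656 (plus) for MERTK and chr5:150155796-150156095 (minus) for PDGFRB. Capitals mark matches on either strand to the motifs searched, which were GGGCGG for Sp1, the CCAAT box, the AP-1 motif TGANTCA, TTCNNNGAA for STAT, the TEAD motif GGAATG and the NF-kB motif.
AXL: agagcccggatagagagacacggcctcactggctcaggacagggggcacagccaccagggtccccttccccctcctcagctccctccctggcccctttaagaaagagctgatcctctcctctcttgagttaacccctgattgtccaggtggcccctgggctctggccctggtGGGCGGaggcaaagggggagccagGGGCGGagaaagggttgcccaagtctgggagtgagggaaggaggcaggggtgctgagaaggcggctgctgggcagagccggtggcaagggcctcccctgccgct
MERTK: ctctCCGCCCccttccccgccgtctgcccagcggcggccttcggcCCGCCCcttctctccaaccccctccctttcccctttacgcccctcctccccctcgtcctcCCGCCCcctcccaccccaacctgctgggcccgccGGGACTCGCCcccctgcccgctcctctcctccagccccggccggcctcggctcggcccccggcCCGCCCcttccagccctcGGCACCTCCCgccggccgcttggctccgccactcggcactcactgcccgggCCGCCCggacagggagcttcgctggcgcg
PDGFRB: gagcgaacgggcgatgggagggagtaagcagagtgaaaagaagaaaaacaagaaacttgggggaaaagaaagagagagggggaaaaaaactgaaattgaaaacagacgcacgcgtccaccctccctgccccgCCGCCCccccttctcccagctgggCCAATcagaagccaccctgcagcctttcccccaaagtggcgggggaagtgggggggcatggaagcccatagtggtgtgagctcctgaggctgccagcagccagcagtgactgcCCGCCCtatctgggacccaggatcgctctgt
The MERTK window held 5 Sp1 matches and 2 NF-kB matches at a GC content of 78.3%. The AXL window, at the first of 2 AXL starts in the RefSeq table, held 2 Sp1 matches at 66.0% GC, and the PDGFRB window 2 Sp1 matches and 1 CCAAT at 59.3% GC. Among 35116 RefSeq promoters of this length, 45.0% held an Sp1 match, 34.6% a CCAAT, 25.6% an NF-kB match, 14% a TEAD, 7.71% an AP-1 and 7.66% a STAT match, and the median GC content was 58.7%. A match describes letters and is not a bound site.

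AXL, the main TAM receptor of these cells, spans chromosome 19 from 41219203 to 41261766 (GRCh38, plus strand). Its FPKM was 327, 307 and 323 in the parent libraries and 211, 211 and 202 in the ADRr libraries. Every ADRr library lay below every parent library, with means of 319 ± 10.7 and 208 ± 5.19 (SD, n = 3). From counts, AXL fell 1.54-fold (log2 fold change -0.62 ± 0.044 SE, edgeR adjusted p = 2.3e-11). It was still the most abundant of 58 listed receptor tyrosine kinases. Among 19951 protein-coding genes ordered by FPKM, AXL ranked 58 to 62 in parent and 99 to 104 in ADRr libraries.

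MERTK, the TAM receptor best known from macrophages that clear dying cells, lies on chromosome 2 at 111898479 to 112029561 (plus strand). It had 136, 137 and 149 counts in the parent libraries and 735, 622 and 761 in the ADRr libraries. The groups were far apart, with an FPKM of 1.76 ± 0.047 against 8.38 ± 0.41. This was a 4.76-fold increase (log2 fold change 2.25 ± 0.095 SE, edgeR adjusted p = 2.6e-15). MERTK moved up from ranks between 9615 and 9733 of the protein-coding genes to ranks between 5004 and 5289.

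TYRO3, the remaining TAM receptor, lies on chromosome 15 at 41557675 to 41583586 (plus strand). Its FPKM was 2.88, 3.82 and 3.48 in parent and 2.51, 2.32 and 2.29 in ADRr libraries. The lowest parent library was above the highest ADRr library, and the gene fell 1.43-fold (log2 fold change -0.52 ± 0.095 SE, edgeR adjusted p = 5.0e-05). The order of the weaker TAM receptors turned over. TYRO3 FPKM exceeded MERTK FPKM in each parent library, and the ratio of MERTK to TYRO3 went from 0.524 ± 0.063 to 3.54 ± 0.23 (SD, n = 3).

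AXL nevertheless made up nearly all TAM receptor RNA in both groups. Its share of the summed TAM FPKM was 98.4% ± 0.21 in parent and 95.1% ± 0.26 in ADRr cells, and the share of MERTK was 0.543% ± 0.031 and 3.84% ± 0.25. The TAM sum itself was 324 ± 10.2 FPKM in parent and 219 ± 5.04 FPKM in ADRr libraries.

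GAS6, the ligand that binds all 3 TAM receptors, lies on chromosome 13 at 113820549 to 113864067 (minus strand). Its FPKM was 52.0, 46.7 and 55.6 in parent and 34.7, 35.7 and 33.7 in ADRr libraries. The groups did not overlap, and GAS6 fell 1.49-fold (log2 fold change -0.57 ± 0.058 SE, edgeR adjusted p = 1.0e-08). The ratio of AXL to GAS6 FPKM was 6.22 ± 0.39 in parent and 6.0 ± 0.095 in ADRr libraries, with overlapping ranges.

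A list of 10 TAM receptors, ligands, vitamin K enzymes and sheddases includes AXL, TYRO3, MERTK and GAS6 themselves. All 10 were tested, with 3 called higher, 5 lower and a median log2 fold change of -0.34. Among its 6 genes outside those examined here, 2 were called higher and 2 lower. The background for this and the later lists is 29.2% of all tested genes called higher, 29.6% lower and a median of -0.0061. ADAM10, a membrane protease that sheds AXL and MET, fell from 34.0 to 10.5 FPKM (log2 fold change -1.70 ± 0.054 SE), while its relative ADAM17 rose from 4.54 to 9.37 FPKM (1.04 ± 0.066 SE). GGCX, the carboxylase that modifies GAS6, rose by 0.40 ± 0.066 and VKORC1L1, which recycles vitamin K, had a log2 fold change of -0.44 ± 0.062. PROS1, the other TAM ligand with broad expression, had 2.94 FPKM in parent and 3.35 FPKM in ADRr cells and was not called (edgeR adjusted p = 0.13).

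**Figure D2:**
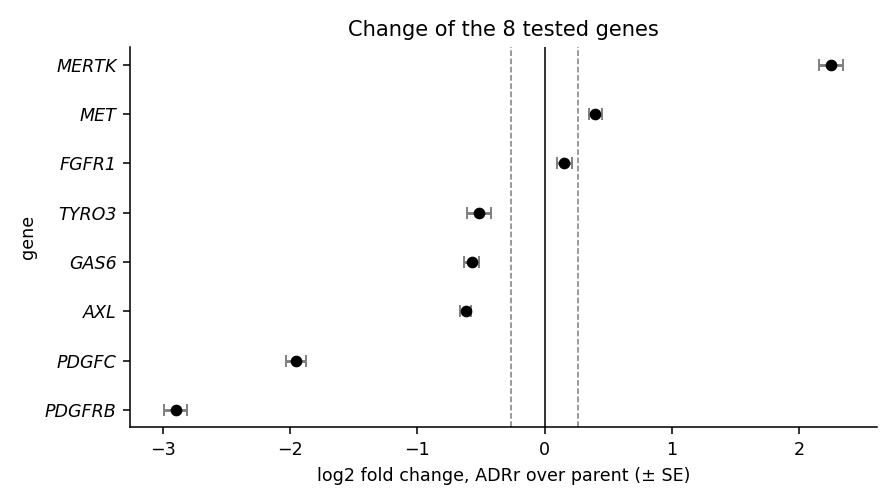
Log2 fold change of ADRr over parent (horizontal axis, with bars for ± 1 SE from edgeR) of the 8 tested genes, where dashed lines mark a fold change of 1.2 either way. MERTK at 2.25 and PDGFRB at -2.90 are the ends, and FGFR1 at 0.15 lies between the dashed lines.

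MET, the receptor for hepatocyte growth factor, lies on chromosome 7 at 116672390 to 116798386 (plus strand). Its FPKM was 42.4, 44.4 and 39.2 in parent and 55.6, 53.6 and 57.2 in ADRr libraries. All ADRr libraries were above all parent libraries, and MET rose 1.32-fold (log2 fold change 0.40 ± 0.052 SE, edgeR adjusted p = 5.8e-07). With AXL lower and MET higher, the ratio of AXL to MET FPKM went from 7.62 ± 0.67 to 3.76 ± 0.20. MET passed GAS6 in the order of the genes by level and came next after AXL among the 10 genes in ADRr cells.

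HGF, the MET ligand, on the same chromosome at 81699008 to 81770438 (minus strand), had 0 counts in each of the 6 libraries. Absence of counts leaves room for up to 0.188 CPM in the shallowest library, so lower levels were not detectable. Within the list of MET receptors, ligands and modulators, 11 of 13 genes were tested, 6 called higher and 3 lower, with a median log2 fold change of 0.35. Without MET itself, 10 were tested, 5 called higher and 3 lower. Some genes are in more than 1 list, and ADAM17 (higher) and ADAM10 (lower) are counted both here and in the TAM list. SPINT2, an inhibitor of the proteases that activate HGF, rose from 19.0 to 34.8 FPKM (0.86 ± 0.064 SE) and the co-receptor CD44 from 83.7 to 146 FPKM (0.80 ± 0.043 SE). The semaphorin receptor PLXNB1, which can associate with MET, had a log2 fold change of -0.96 ± 0.12 (SE). MST1R, the closest relative of MET, rose by 0.35 ± 0.089 on the log2 scale.

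FGFR1 lies on chromosome 8 at 38400215 to 38468834 (minus strand). Its FPKM was 12.2, 10.8 and 12.9 in parent and 13.4, 13.9 and 12.9 in ADRr libraries. The third libraries of both groups lay at the same level, so the groups overlapped. The log2 fold change was 0.15 ± 0.060 (SE) with an edgeR adjusted p of 0.030, below the fold threshold, and FGFR1 was not called. In 16 other settings of the fit its log2 fold change ranged from 0.087 to 0.21 and its adjusted p from 0.0012 to 0.16.

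FGF2, its ligand, on chromosome 4 at 122826708 to 122898236 (plus strand), had 0, 0 and 2 counts in parent and 2, 4 and 0 counts in ADRr libraries, and no fold change is given at this depth. NUDT6, which overlaps FGF2 on the opposite strand, had 69 to 84 counts in the 6 libraries and was not called (log2 fold change -0.041, edgeR adjusted p = 0.86). Of the 34 listed FGF receptors, ligands and partners, 9 could be tested, and edgeR called 0 higher and 3 lower (median log2 fold change -0.18). Those were the receptor FGFR3 (1.80 to 0.40 FPKM, -2.18 ± 0.19 SE), the kinase-less receptor FGFRL1 (25.4 to 9.71 FPKM, -1.39 ± 0.077 SE) and the docking adaptor FRS2 (5.85 to 3.47 FPKM, -0.76 ± 0.085 SE). FGFR1 was the 1 gene of the list higher at an unadjusted p under 0.05, and DESeq2 called 0 higher.

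Heparan sulfate carries FGF ligands to their receptors, so its core proteins and enzymes were listed as well. Of 27 such genes, 17 were tested, and edgeR called 13 lower and 0 higher, with a median log2 fold change of -0.70. Over all tested genes, 29.6% were called lower and 29.2% higher, with a median of -0.0061. Most of these falls were moderate, and 1 gene was called lower where the log2 fold change had to reach 1.2 in size. At an unadjusted p under 0.05, 0 were higher, and DESeq2 called 0 higher too. Syndecan SDC2 fell from 15.7 to 4.06 FPKM (-1.96 ± 0.076 SE) and GLCE, the epimerase that modifies the chains, from 12.9 to 5.88 FPKM (-1.14 ± 0.068 SE). Glypican GPC6 had a log2 fold change of -1.18 ± 0.19 (SE). The main syndecan of these cells, SDC4, went from 228 to 164 FPKM.

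PDGFRB, the PDGF receptor that binds PDGF-B and PDGF-D dimers, lies on chromosome 5 at 150113837 to 150155872 (minus strand). It had 999, 1018 and 1122 counts in the parent libraries and 148, 127 and 168 in the ADRr libraries. The highest ADRr library was thus far below the lowest parent library, and the FPKM means were 8.60 ± 0.30 and 1.15 ± 0.10. PDGFRB fell 7.46-fold (log2 fold change -2.90 ± 0.090 SE, edgeR adjusted p = 1.2e-17), the largest change among the 8 genes.

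In bulk RNA, fewer cells carrying a transcript and less RNA per cell cannot be told apart. PDGFRB is a fibroblast and pericyte gene, and the summed FPKM of 10 fibroblast markers was 10.5 to 11.4 in parent and 3.14 to 3.44 in ADRr libraries, with 3 of the 4 tested markers called lower. COL1A2 went from 6.02 to 0.03 FPKM, COL1A1 from 2.80 to 1.82 and LUM from 1.49 to 0.93. DCN, FAP, PDPN and POSTN had at most 3 counts in every library. The summed FPKM of 8 pericyte markers was 29.8 to 32.0 in parent and 31.9 to 33.7 in ADRr libraries. Of the 5 pericyte markers tested, 1 was called higher and 0 lower. The shares over all tested genes were 29.2% higher and 29.6% lower. The part of the fibroblast genes in the PDGFRB result was not tested.

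PDGFC, a ligand made as an inactive precursor that plasminogen activators can process, lies on chromosome 4 at 156760454 to 156971394 (minus strand). Its FPKM was 25.6, 28.0 and 22.2 in parent and 7.07, 6.48 and 6.09 in ADRr libraries. The groups were well separated, and PDGFC fell 3.87-fold (log2 fold change -1.95 ± 0.079 SE, edgeR adjusted p = 1.1e-15). It was the most abundant PDGF ligand of both groups, ahead of PDGFA, which rose from 2.42 to 3.62 FPKM (log2 fold change 0.58). PDGFC fell less than PDGFRB. The ratio of PDGFC to PDGFRB FPKM thus went from 2.94 ± 0.34 to 5.72 ± 0.78. The ligands named above for PDGFRB are PDGF-B and PDGF-D, so this ratio is not read as that of a ligand to its receptor.

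The PDGF system did not move as 1 block. In a list of 10, 8 were tested, 5 were called higher and 2 lower, and the 2 that fell were PDGFRB and PDGFC themselves. PLAT, the tissue plasminogen activator that cleaves PDGF-C, rose from 23.7 to 97.0 FPKM (2.03 ± 0.051 SE) and the urokinase PLAU from 141 to 361 FPKM (1.35 ± 0.045 SE). The ligand PDGFB rose from 0.57 to 1.26 FPKM (1.12 ± 0.25 SE), and NRP1, a co-receptor, rose by 0.29 on the log2 scale. PDGFRA was under 1 normalized count per library in both groups on average.

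Ordered by mean FPKM, the parent cells gave AXL, GAS6, MET, PDGFC, FGFR1, PDGFRB, TYRO3, MERTK, FGF2 and HGF. In ADRr cells the order was AXL, MET, GAS6, FGFR1, MERTK, PDGFC, TYRO3, PDGFRB, FGF2 and HGF. No pair of neighbours in either order had overlapping ranges apart from FGF2 and HGF. MERTK rose by 3 places and PDGFRB fell by 2, and the ratio of MERTK to PDGFRB FPKM went from 0.204 ± 0.0025 to 7.29 ± 0.36.

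The 6 receptors were then placed among 58 receptor tyrosine kinases. The summed FPKM of all 58 was 622 ± 19.4 in parent and 621 ± 6.23 in ADRr cells, a difference far inside the spread of the parent libraries, while the sum without AXL went from 303 ± 9.88 to 413 ± 2.40. AXL made up 51.9%, 51.2% and 50.8% of the sum in parent and 33.9%, 33.6% and 32.9% in ADRr libraries, a difference of -17.8 percentage points. EGFR went the other way, from 6.26% ± 0.34 to 16.5% ± 0.35, and so did EPHA2, from 14.6% ± 0.89 to 22.9% ± 0.59.

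MET held 6.77% ± 0.62 of receptor FPKM in parent and 8.93% ± 0.38 in ADRr libraries, and FGFR1 1.92% ± 0.11 and 2.15% ± 0.058. PDGFRB went from 1.39% ± 0.081 to 0.186% ± 0.018, and MERTK from 0.283% ± 0.016 to 1.35% ± 0.078. The share of TYRO3 was 0.547% ± 0.090 and 0.382% ± 0.018. For each of these 6 shares the exact two-sided permutation test gave p = 0.1, also after adjustment over the 6 shares, the smallest value that 3 against 3 libraries allow. Taken from counts without division by length, the FGFR1 shares overlapped (exact permutation p = 0.7).

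Among the 52 receptors of the list outside the 6, 28 were tested, with 8 called higher and 12 lower. For the whole list, 34 were tested with 10 higher and 15 lower, and the median log2 fold change was -0.10. Over all tested genes, 29.2% were called higher and 29.6% lower, so the higher calls among the 28 were near the background. EGFR rose from 38.9 to 103 FPKM (1.40 ± 0.044 SE) and EPHA2 from 91.1 to 142 FPKM (0.64 ± 0.056 SE), and EGFR, below MET in parent cells on average, was above it in ADRr cells. The low-level ephrin receptors EPHA10 (1.87 ± 0.19 SE) and EPHA4 (1.83 ± 0.20 SE) had increases close to that of MERTK, whereas PTK7 (-2.07 ± 0.094 SE) and LTK (-1.36 ± 0.23 SE) fell. ERBB2, the HER2 gene, fell from 11.4 to 4.83 FPKM (-1.25 ± 0.068 SE).

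Of the remaining receptors with at least 5 FPKM in a group, RYK rose by 0.31 ± 0.070 on the log2 scale, while EPHB2 (-0.42 ± 0.057 SE) and ROR1 (-0.26 ± 0.063 SE, just past the fold threshold) fell. EPHB4 (-0.095 ± 0.066 SE), DDR1 (0.16 ± 0.067 SE) and LMTK2 (0.13 ± 0.066 SE) were not called. By Euclidean distance of centred log2 CPM profiles over the 6 libraries, the receptors most like PDGFRB were FGFR3 (1.01) and PTK7 (1.04), and those most like MERTK were EPHA10 (0.58) and EPHA4 (0.78). AXL lay nearest to STYK1 (0.16) and EPHB2 (0.26), and TYRO3 to the same genes (0.35 and 0.40). MET lay nearest to RYK (0.19) and LMTK2 (0.40), and FGFR1 to DDR1 (0.037) and LMTK2 (0.21). With 2 groups of 3 libraries, these distances mainly order the receptors by the size of their change.

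**Figure D3:**
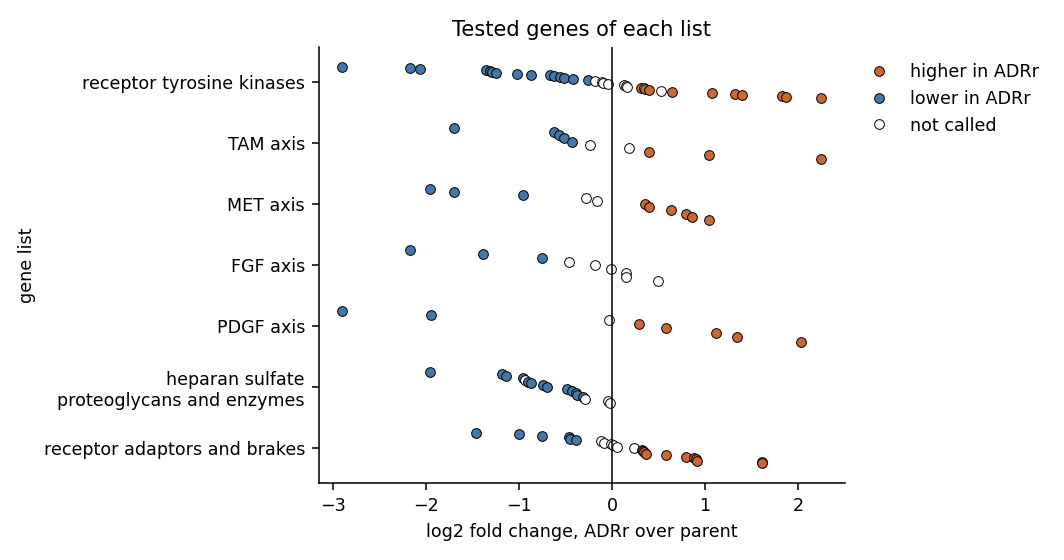
Log2 fold change of ADRr over parent for every tested gene of 7 lists (1 point per gene, spread vertically by rank), coloured where called higher (orange) or lower (blue) and white where not called. The heparan sulfate genes have 13 of 17 called lower and 0 higher, and the adaptors 11 higher and 6 lower. Over all tested genes, 29.2% were called higher and 29.6% lower.

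Downstream of the receptors, 23 of 24 adaptors, phosphatases and other brakes were tested, 11 called higher and 6 lower (median log2 fold change 0.24). The shares over all tested genes were 29.2% higher and 29.6% lower. SHC2 (1.61 ± 0.19 SE) and SHC3 (0.91 ± 0.22 SE), adaptors of low level in these cells, rose, as did the ubiquitin ligase CBLB (1.61 ± 0.092 SE), which marks activated receptors for degradation. Its better known relative CBL passed the adjusted p but not the fold threshold (log2 fold change 0.24). The receptor phosphatases PTPRJ (32.3 to 11.8 FPKM, -1.46 ± 0.054 SE) and PTPRF (62.6 to 31.3 FPKM, -1.01 ± 0.051 SE) fell. The general adaptor GRB2 had 34.4 and 32.3 FPKM and was not called.

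The 10 genes were also set beside their 10 nearest tested genes on the chromosome, 5 on each side by gene start. Tested genes that overlap a gene were counted among its neighbours. The 10 neighbours spanned from 0.489 Mb around PDGFRB to 7.39 Mb around HGF. The background for the counts called among all these neighbours is 29.2% of all tested genes called higher and 29.6% lower. Around PDGFRB the median log2 fold change was -0.55, with 7 of 10 called lower and 2 higher. There, 2 close neighbours had falls of nearly the same size (CAMK2A -2.80 and ARSI -2.65). CSF1R, the receptor kinase gene next to PDGFRB, fell by 1.31 on the log2 scale from a low level. Around PDGFC the median was -0.47 with 5 called lower and 2 higher, and FAM198B fell more than PDGFC itself (-3.41).

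MERTK rose by more than its 10 nearest neighbours, whose log2 fold changes ran from -1.27 to 1.38 with a median of -0.12. It did not stand above its 20 nearest, among which 7 were called higher and the highest log2 fold change was 3.71. GAS6 fell while the median of its neighbours was 0.62 and 5 were called higher, among them RASA3 (1.12). MET rose while the median of its neighbours was -0.33 and 4 were called lower, CAV1 among them (-1.30). The medians were 0.035 near AXL, -0.0074 near FGFR1 and -0.23 near TYRO3 (-0.39 with 20 neighbours), and LTK, a receptor kinase gene close to TYRO3, had a log2 fold change of -1.36. Around the undetected HGF and FGF2 the medians were 0.22 and 0.026. The tested genes next to HGF on either side, SEMA3C (-0.725) and CACNA2D1 (-0.669), were called lower. SEMA3D, at 3.24, was the farthest of the HGF neighbours on its side. With 20 neighbours the median was -0.29 near PDGFRB, -0.28 near PDGFC and -0.26 near MET.

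**Figure D4:**
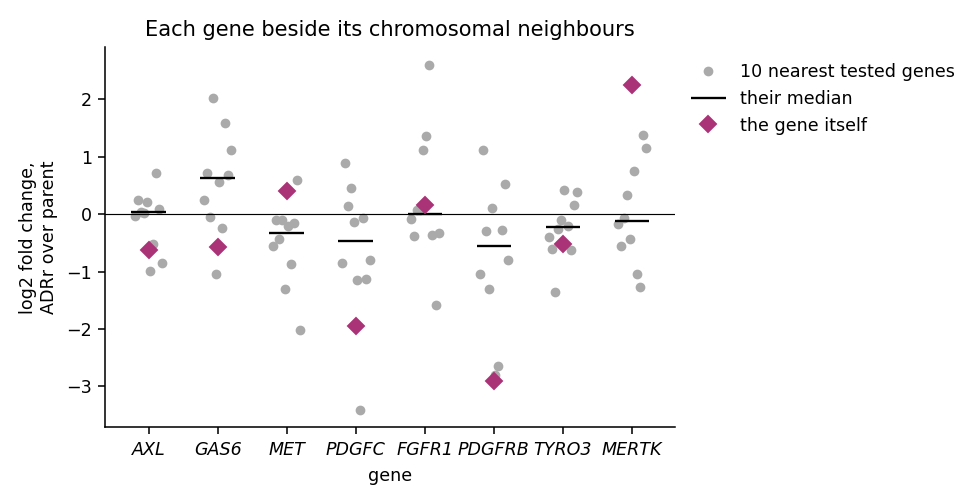
Log2 fold change of ADRr over parent (vertical axis) for each of the 8 tested genes (diamonds) beside its 10 nearest tested genes, taken equally from each side (gray points), and their median (black line). MERTK lies above the 10 neighbours drawn (among its 20 nearest the highest value is 3.71), and PDGFRB at -2.90 lies just below CAMK2A and ARSI.

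Genes overlapping the 10 were checked because the sources used here do not say whether counting used the strand, so that reads of a gene and its antisense partner cannot be told apart. Opposite AXL, AC011510.1 had 13 to 34 counts (log2 fold change -0.98), and opposite GAS6, GAS6-AS1 had 19 to 56 counts (-1.05). Both moved in the direction of the gene they overlap, at counts far below those of AXL and GAS6. Opposite FGFR1, LETM2 had 117 to 130 counts in parent and 268 to 290 in ADRr libraries (1.12) and AC087623.1, with at most 14 counts in parent libraries, had 20 to 23 in ADRr libraries (1.36). Their share in the FGFR1 value was not tested.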

How the data were processed

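Total RNA of 3 parent and 3 ADRr MDA-MB-231 libraries was sequenced. Per the labels, the authors' processing used fastp, HISAT2 2.0.5, featureCounts 1.5.0-p3 and DESeq2 1.20.0 on GRCh38, and gene IDs, positions and lengths of the deposited table match GENCODE annotation of that build. The authors deposited raw read counts per gene, with 15983985 to 18272314 counts per library, and FPKM values, which divide by gene length and library total. The study's methods name a poly(A) kit with less input RNA than the sample records, and the series record mentions 3 time points that no sample label names. Strand use in counting was not given in the sources used here.

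Counts were tested with edgeR 4.0.16 in R 4.3.3 (quasi-likelihood, TMM, filterByExpr, no covariate), with limma 3.58.1 and DESeq2 1.42.0 as alternatives, and the scripts were checked on simulated data. SEs are the absolute log2 fold change divided by the root of F. FPKM shares were compared by exact permutation. Profiles for distances used log2 CPM with a prior count of 2. Chi-square per degree of freedom between libraries of a group was 2.19 to 5.82, above the sampling noise. Each library counted as 1 sample, although this spread does not show whether libraries of a group were separate cultures.

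The members, the lists of related and marker genes and the tests were chosen with earlier results of these data known. Named were every member, overlapping genes with at least 10 counts on average, and per list of related genes the 3 largest called increases and decreases whose higher group averaged at least 50 normalized counts. Receptors with at least 5 FPKM and the 2 nearest receptors of each member receptor were named too. Neighbouring genes, marker genes and further list genes (PROS1, SDC4, NRP1, PDGFA, PDGFRA, CBL, GRB2) were singled out after their values were seen. RGS5, a pericyte marker, names 2 rows of the table.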

Additional observations from a re-analysis of the deposited data

How the results depend on the processing

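No call of the 8 tested genes changed in 16 other settings (DESeq2 or library size scaling, DESeq2, other filters, limma-trend on FPKM with pseudocounts of 1 and 0.1, the replicate block, and each library left out), and all 128 log2 fold changes kept direction and call. Leaving out 1 library at a time gave 2 higher and 5 lower each time, against 4257 to 4434 higher and 4366 to 4510 lower of all genes. Log2 fold changes ranged from -0.65 to -0.59 for AXL, 1.77 to 2.29 for MERTK, 0.35 to 0.44 for MET and -2.97 to -2.16 for PDGFRB. By adjusted p alone 3 genes were higher and 5 lower, FGFR1 being the addition. Of all 15242 tested genes, 4992 were then higher and 5065 lower. Where the log2 fold change had to reach 1.2 in size, 1 was higher (MERTK) and 2 lower (PDGFRB, PDGFC), against 1114 higher and 972 lower of all genes. There, heparan sulfate genes called lower went from 13 to 1, higher calls from 6 to 0 in the MET list, 11 to 2 among adaptors, 5 to 2 in the PDGF list, 3 to 1 in the TAM list and 10 to 5 among receptors, and lower calls from 5 to 1 in the TAM list, 6 to 1 among adaptors and 15 to 7 among receptors. The replicate numbers did not pair the samples (correlations of deviations 0.0074, -0.021 and -0.046, none best with its own number), and the replicate block gave 2 higher and 5 lower, 4406 higher and 4464 lower over all genes, against 4451 and 4507 without it. From counts instead of FPKM the shares of receptor RNA differed, in percentage points, by -16.7 in place of -17.8 for AXL, -0.339 in place of -0.165 for TYRO3, 0.708 in place of 1.07 for MERTK, 1.58 in place of 2.16 for MET, 0.107 in place of 0.228 for FGFR1 and -1.37 in place of -1.20 for PDGFRB. With 20 neighbours the median beside HGF was -0.050 in place of 0.22, that beside MERTK 0.18 in place of -0.12, FGF2 -0.23 in place of 0.026, TYRO3 -0.39 in place of -0.23, PDGFRB -0.29 in place of -0.55 and PDGFC -0.28 in place of -0.47. Without the filter on low counts, 1 heparan sulfate gene was called higher. In all, 11 of 266 counts of calls in lists moved by over 1.5 times, those above and FGFR1 as the 1 FGF gene higher by adjusted p alone. Genes with few counts, HGF and FGF2 among them, are limited by depth.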
